A study of Mus musculus with 2 samples.

Results

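The microRNA families miR-297, miR-466, miR-467 and miR-669 were taken from an array comparison in a mouse ovarian tumour model. Every miRNA probe whose name begins with one of those 4 numbers was used, which gave 71 of 1900 miRNA probes. They comprise 4 probes of the miR-297 subfamily, 27 of miR-466, 13 of miR-467 and 27 of miR-669, and 7 of the 71 probes are shared by several mature miRNAs, which are named together. The bevacizumab group and the control IgG group both consisted of C57BL/6 mice, 5 weeks old, that carried intraperitoneal tumours of ID-8 LUC2 cells, a luciferase-marked form of a mouse ovarian cancer line. Treatment with bevacizumab or with control IgG, at the same dose of 5 mg/kg given 2 times weekly, ran from day 14 until the animals were killed at day 42. Bevacizumab is an antibody raised against the human growth factor VEGF-A, which drives vessel growth, and is known to bind the mouse protein only weakly. The 2 RNAs were labelled with Cy5 and each hybridised to 1 Toray 3D-Gene array, so the variation among animals is unknown, nothing could be tested between groups, and every difference compares these 2 arrays. Whether animals were pooled for an RNA is not stated in the labels. The design text names tumour RNA, whereas the sample protocol names cells, and which was hybridised was not settled. If the RNA came from tumour tissue, fewer cells that express a miRNA and less of it per cell cannot be told apart.

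A miRNA is a short RNA cut from a hairpin precursor; either arm of the hairpin (5p or 3p) can guide the silencing of messenger RNAs, chiefly through its seed, bases 2 to 8. Most hairpins of these 4 families lie in one intron of Sfmbt2, an imprinted gene for a Polycomb protein that is expressed from the paternal copy. The cluster is specific to rodents, arose by repeated duplication of short repeats, and is best known from trophoblast and embryonic stem cells. Deleting it in mice impairs growth of the placenta.

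The rule by name took in hairpins from outside that locus. In the RefSeq annotation (assembly GRCm38.p6), 81 hairpin genes carry these family names. The span of Sfmbt2 on chromosome 2 holds 71 of them, namely 5 of miR-297, 23 of miR-466, 14 of miR-467 and 29 of miR-669. The remaining 10 lie elsewhere. Of the 71 probes, 57 correspond only to genes within Sfmbt2, 9 only to genes outside it, and 5 to genes in both places. The 71 probes are therefore called by their family names here, and not as one cluster.

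The RefSeq table gave a mature sequence for 8 of the 71 probes, all 8 from genes outside Sfmbt2. They are shown because they fall into 2 kinds of simple repeat, whose levels are set side by side below. The seed is in capitals. The first 4 are built on alternating A and C.
miR-466i-3p: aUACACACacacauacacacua
miR-466q: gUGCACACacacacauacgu
miR-467f: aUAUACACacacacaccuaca
miR-467g: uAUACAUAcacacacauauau
The other 4 are built on alternating U and G.
miR-466j: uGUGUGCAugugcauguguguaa
miR-466k: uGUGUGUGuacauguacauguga
miR-467h: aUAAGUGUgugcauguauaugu
miR-669n: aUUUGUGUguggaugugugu
In GRCm38.p6 these lie at chr13:17747552-17747573 (plus strand) for miR-466i-3p, chr3:28419988-28420007 (plus) for miR-466q, chr11:69635419-69635439 (minus) for miR-467f and chr5:34732872-34732892 (minus) for miR-467g. The U and G set lies at chr10:60960802-60960824 (plus) for miR-466j, chr3:85467396-85467418 (plus) for miR-466k, chr9:115381898-115381919 (plus) for miR-467h and chr3:115979905-115979924 (plus) for miR-669n. The longest run of alternating A and C was 9 to 12 bases in the first set, and the longest run of alternating U and G was 7 to 9 bases in the second. No 2 of the 8 had the same seed, so no group by shared seed could be formed. Among the mature miRNAs of the RefSeq table that were searched, miR-668-5p shared the seed UAAGUGU with miR-467h. The search did not cover every chromosome, and members with no sequence in the table were not compared. Each of the 8 differed from the nearest of the other 7 by 5 to 7 single-base edits (substitutions, insertions or deletions). How far such probes also bind each other's miRNA was not tested.

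The families were dim on both arrays. Levels are given as spot intensity less the mean of the blank spots, in linear units, and a probe was called detected above the blank mean plus 2 SD, which was 8.06 units on the bevacizumab array and 1.66 units on the control IgG array. A single blank spot varied with an SD of 4.03 units on the bevacizumab array and 0.828 on the control IgG array, with the top and bottom 5% of blank spots trimmed. Of the 896 blank spots themselves, 6.58% on the bevacizumab array and 6.36% on the control IgG array exceeded these limits. The 71 probes ranged from -6.06 to 70.6 units on the bevacizumab array (median 5.90) and from -3.63 to 33.9 units on the control IgG array (median 2.69). Over all 1900 probes the medians were 7.89 and 6.91 units, and the brightest miRNAs reached 9139 units on the bevacizumab array and 37888 on the control IgG array. Many members thus lay near the detection limits, whereas 11 stood above the blank mean by more than 5 SD on both arrays.

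Detection was less frequent in these families than over the whole array. The bevacizumab array detected 27 of the 71 probes (38.0%), against 49.5% of all probes. The control IgG array detected 44 (62.0%), against 74.5% of all probes. Both arrays detected 23 members (48.3% of all probes), 21 were seen on the control IgG array alone (26.3% of all probes), 4 on the bevacizumab array alone (1.21% of all probes) and 23 on neither (24.3% of all probes). At a stricter limit of 5 SD the bevacizumab array detected 12 members (32.8% of all probes) and the control IgG array 30 (61.7% of all probes), with 11 detected on both (32.5% of all probes).

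**Figure D1:**
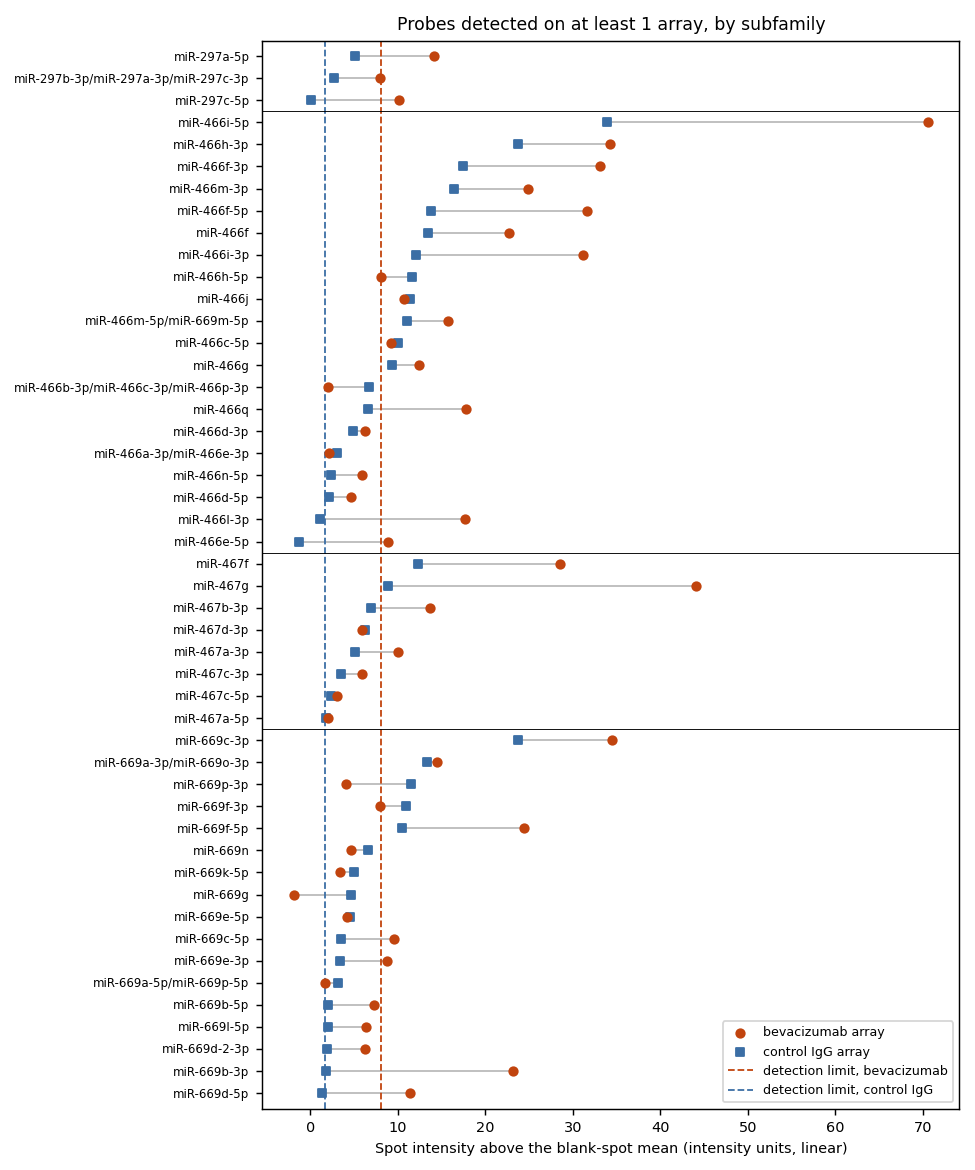
Blank-subtracted spot intensity (linear units) of the 48 members detected on at least 1 array, grouped by subfamily, with circles for the bevacizumab array, squares for the control IgG array and dashed lines for each array's detection limit. miR-466i-5p stands highest on both arrays at 70.6 and 33.9 units, and no other member exceeds 44.1 units on the bevacizumab array or 23.7 on the control IgG array.

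Members with genes outside Sfmbt2 had a higher share detected on both arrays than those from within it, a difference that was not tested. Of the 9 probes with genes only outside, the bevacizumab array detected 6 (66.7%) and the control IgG array 7 (77.8%). Over all 1900 probes the shares were 49.5% and 74.5%. Of the 57 with genes only within Sfmbt2, the arrays detected 17 (29.8%) and 32 (56.1%). Of the 5 with genes in both places, which are 3 miR-466f probes and 2 miR-297 probes, the arrays detected 4 and 5. The brightest member on either array, miR-466i-5p, comes from the Mir466i gene on chromosome 13. Of the 7 probes that stand for 5 or more hairpin genes each, 2 were detected on both arrays (48.3% of all probes). A further 4 were detected on the control IgG array alone (26.3% of all probes) and 1 on neither (24.3% of all probes). Of the 53 probes with a single gene, 15 were detected on both (48.3% of all probes). The brightest of the 7 on either array was the probe for miR-669a-3p and miR-669o-3p, with 13 genes, at 14.4 units on the bevacizumab array and 13.3 on the control IgG array. Genes were counted by name, so those 13 include the gene of miR-669a-3-3p, which has a probe of its own. miR-467a-3p, with 10 genes, read 10.0 and 5.06 units. The probe for miR-669a-5p and miR-669p-5p stands for 14 genes and read 1.61 units on the bevacizumab array and 3.14 on the control IgG array. The probe for miR-466b-3p, miR-466c-3p and miR-466p-3p, with 11 genes, read 1.96 and 6.68 units. The probe for miR-466b-5p and miR-466o-5p, with 9 genes, read -1.43 and -1.73 units, below the blank mean on both arrays.

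**Figure D2:**
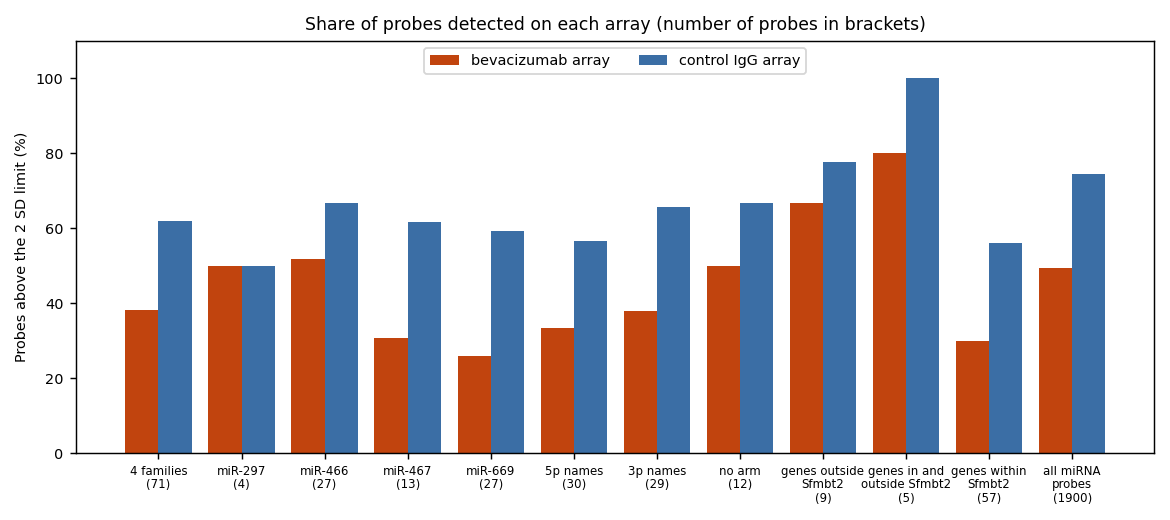
Percentage of probes above the 2 SD limit on the bevacizumab array (left bars) and on the control IgG array (right bars), by subfamily, arm in the name and location of the genes, with the number of probes in brackets. All 4 families together reach 38.0% and 62.0%, below the 49.5% and 74.5% of all miRNA probes, and the 57 probes from within Sfmbt2 reach 29.8% and 56.1%.

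In the miR-297 subfamily only miR-297a-5p was detected on both arrays, at 14.1 units on the bevacizumab array and 5.15 units on the control IgG array. The probe shared by the 3p arms of miR-297a, miR-297b and miR-297c was detected on the control IgG array alone (2.69 units, against 7.91 on the bevacizumab array, just under that array's higher limit). miR-297c-5p was detected on the bevacizumab array alone, at 10.1 units against 0.062 on the control IgG array.

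The miR-466 subfamily held the brightest members, and 12 of its 27 probes were detected on both arrays. miR-466i-5p read 70.6 units on the bevacizumab array and 33.9 units on the control IgG array. These levels ranked 288 and 420 among the 1900 probes. miR-466h-3p followed with 34.3 and 23.7 units, and miR-466f-3p with 33.1 and 17.4 units. miR-466f-5p read 31.6 and 13.7 units, close to its 3p partner. miR-466i-3p read 31.1 and 12.1 units. miR-466m-3p read 24.9 and 16.4 units, and the probe for miR-466f without an arm 22.7 and 13.4 units. Lower down were miR-466q (17.8 and 6.61), the probe shared by miR-466m-5p and miR-669m-5p (15.7 and 11.0), miR-466g (12.4 and 9.32), miR-466j (10.7 and 11.4) and miR-466c-5p (9.26 and 9.96). In this list the bevacizumab value comes first, and it was the higher one for all but miR-466j and miR-466c-5p, whose array values differed by less than 1 blank-spot SD of the bevacizumab array.

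Of the miR-466 probes seen on the control IgG array alone, the brightest were miR-466h-5p (8.04 units on the bevacizumab array and 11.6 on the control IgG array), the probe of miR-466b-3p, miR-466c-3p and miR-466p-3p, and miR-466d-3p (6.27 and 4.81). miR-466h-5p is known for promoting apoptosis in hamster ovary cells. Its bevacizumab reading lay just under the limit of 8.06 units there. The bevacizumab array alone detected miR-466l-3p, at 17.6 units against 1.10 on the control IgG array, and miR-466e-5p, at 8.81 units against -1.32. miR-466l is known in mouse macrophages for stabilising interleukin-10 messenger RNA.

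The miR-467 subfamily had 4 of 13 probes detected on both arrays. miR-467g read 44.1 units on the bevacizumab array and 8.81 units on the control IgG array, and was the second brightest member on the bevacizumab array. miR-467f read 28.6 and 12.3 units. Both have genes outside Sfmbt2. From within it, miR-467b-3p read 13.6 and 6.87 units and miR-467a-3p 10.0 and 5.06 units. miR-467 is known in mouse as a repressor of thrombospondin-1, an inhibitor of vessel growth. miR-467a-5p, with 10 hairpin genes, was at 1.96 units on the bevacizumab array and 1.77 on the control IgG array, and only the second passed its limit. With miR-467d-3p (5.93 and 6.28 units), miR-467c-3p (5.90 and 3.44) and miR-467c-5p (3.00 and 2.32) it made up the 4 seen on the control IgG array alone. No 5p probe of this subfamily was detected on the bevacizumab array (0 of 5).

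The miR-669 subfamily had 6 of 27 probes detected on both arrays. miR-669c-3p was its brightest, at 34.5 units on the bevacizumab array and 23.7 units on the control IgG array. miR-669f-5p read 24.4 and 10.4 units, and miR-669b-3p 23.1 and 1.81 units. The probe of miR-669a-3p and miR-669o-3p, with 13 hairpin genes counted by name, read 14.4 and 13.3 units. miR-669c-5p read 9.57 and 3.51 units and miR-669e-3p 8.75 and 3.42 units. A further 10 were detected on the control IgG array alone. The brightest of these were miR-669p-3p, at 4.11 units on the bevacizumab array and 11.5 on the control IgG array, then miR-669f-3p (7.97 and 11.0) and miR-669n (4.60 and 6.58). miR-669d-5p was seen on the bevacizumab array alone, at 11.4 units against 1.37. miR-669a is known in mouse for restraining muscle differentiation in cardiac progenitor cells. Its 5p probe and the 3p probe shared with miR-669o are given above, and miR-669a-3-3p read -3.04 units on the bevacizumab array and 1.12 on the control IgG array, below both limits.

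The 2 arms were detected at similar rates. Probes named 5p were detected in 10 of 30 cases on the bevacizumab array and 17 on the control IgG array, and those named 3p in 11 of 29 and 19. Probes with no arm in the name were detected in 6 of 12 and 8. Over all 1900 probes the shares were 49.5% on the bevacizumab array and 74.5% on the control IgG array. Within hairpin names the 3p arm was the brighter one in more of the pairs on each array. How the arms compare over all hairpins on the arrays was not measured. Of 33 names with both arms on the array, 19 had an arm detected on the bevacizumab array, and the 3p arm was brighter in 11 of them. On the control IgG array 28 had an arm detected, and the 3p arm was brighter in 19. Some of these names share a probe, so the pairs are not independent, and 2 probes also differ in how well they bind. Some gaps were also smaller than the blank-spot SD. On the control IgG array, where it was 0.828 units, miR-669f read 11.0 for 3p against 10.4 for 5p, and miR-669b 1.81 against 2.00. miR-669c had the widest gap in favour of 3p on the control IgG array (23.7 against 3.51 units), and miR-466i the widest gap in favour of 5p (33.9 against 12.1). Both kept that order on the bevacizumab array.

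**Figure D3:**
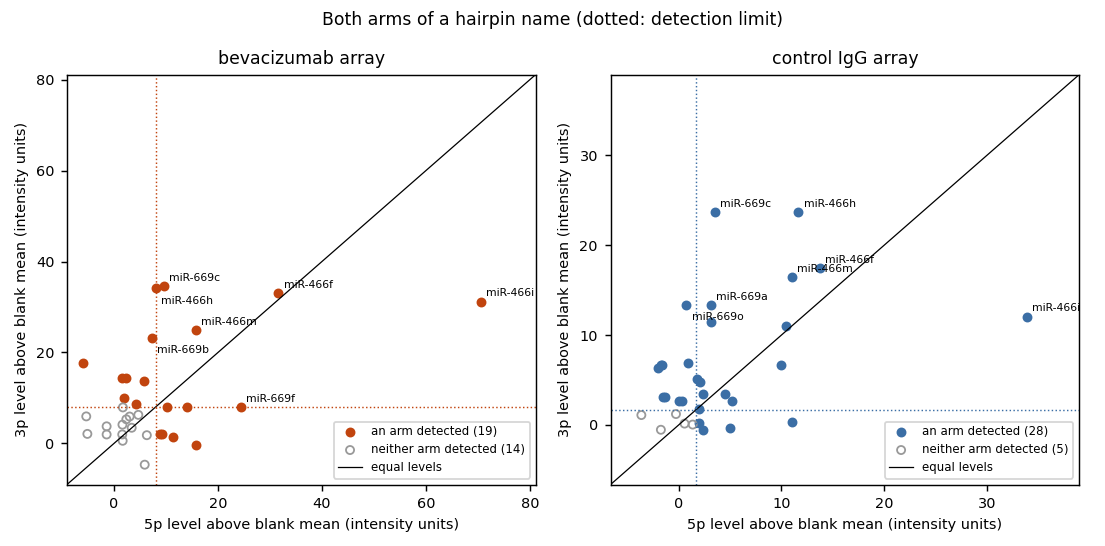
Level of the 3p arm against the 5p arm (blank-subtracted intensity units, linear) for the 33 hairpin names with both arms on the array, on the bevacizumab array (left) and the control IgG array (right), with filled points where an arm was detected (19 and 28 names). Of the filled points, 11 of 19 and 19 of 28 lie above the line of equal levels, and miR-466i lies far below it on both arrays.

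Between the arrays, the members' median difference was close to that of all miRNAs in the normalized comparison. After normexp correction on the blank spots with an offset of 50 and quantile normalization, the median log2 difference, bevacizumab minus control IgG, was 0.12 over the 23 members and 0.14 over all 917 miRNAs detected on both arrays. The members ranged from -0.049 to 0.64, and none differed by 2-fold, against 10.5% of all miRNAs that were higher and 11.6% that were lower by that much. The offset exceeds the level of all but 1 member on these arrays, so it compresses their differences toward 0. By subfamily the medians were 0.17 for miR-297 (1 probe), 0.11 for miR-466 (12), 0.19 for miR-467 (4) and 0.12 for miR-669 (6). By arm they were 0.17 for 5p (7 probes), 0.12 for 3p (10) and 0.15 for names without an arm (6). For no member seen on 1 array alone did the lower bound of its normalized fold difference reach 2-fold. With the offset of 50 and levels of at most 17.6 units for these members, 2-fold was out of reach on this scale. The highest bounds were at least 1.08-fold lower for miR-466h-5p and at least 1.24-fold higher for miR-466l-3p. Most bounds of members seen on the control IgG array alone were below 1 and so set no limit, such as 0.93 for the shared miR-297 3p probe.

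The blank-subtracted signals, neither offset nor normalized, show more of the spread among members. Of the 23, 21 had more signal on the bevacizumab array, as did 73.3% of all 917 miRNAs. The median log2 ratio was 0.99 over the members and 0.82 over all. At least 2-fold higher were 11 of the 23 (40.7% of all), and none was at least 2-fold lower (16.1% of all). The detection limits partly fix these counts and those that follow. To be among the 23, a member had to pass 8.06 units on the bevacizumab array but only 1.66 on the control IgG array. A member below 8.06 units on the control IgG array could enter only with more signal on the bevacizumab array. The 21 members seen on the control IgG array alone are left out. The 917 were brighter, with median levels of 31.2 and 22.2 units against 22.7 and 11.0 for the members. The blank-spot spread alone gave a single ratio an SD of 0.090 to 0.75 (median 0.37). Set against the median of all miRNAs, 4 members stood above it by more than 2 of their own SDs (30% of all did) and none below it (32.2% of all did).

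These 4 were miR-669b-3p, miR-467g, miR-466i-3p and miR-466i-5p. miR-669b-3p, from within Sfmbt2, had a log2 ratio of 3.67 ± 0.71 (SD from blank spots), but its 1.81 units on the control IgG array were only just above the limit of 1.66. With local background in place of the blank spots its signal was 35.0 units on the bevacizumab array and 11.2 on the control IgG array, and its median-scaled log2 difference was -0.01. miR-467g had a log2 ratio of 2.32 ± 0.19 and was above the 5 SD limit on both arrays. It stayed above 0 under each setting tried, from 0.048 with spike scaling to 2.32 with no normalization. In the authors' deposited table it stood at 36.2 units on the bevacizumab array and 17.5 on the control IgG array. miR-466i-3p (1.37 ± 0.21) and miR-466i-5p (1.06 ± 0.090) come from the same hairpin on chromosome 13. With local background and median scaling miR-466i-3p was at 0.94, whereas miR-466i-5p turned to -0.53, against -0.0077 over all miRNAs. With offset 50 and cyclic loess miR-466i-5p was at 0.057, against 0.046 over all.

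**Figure D4:**
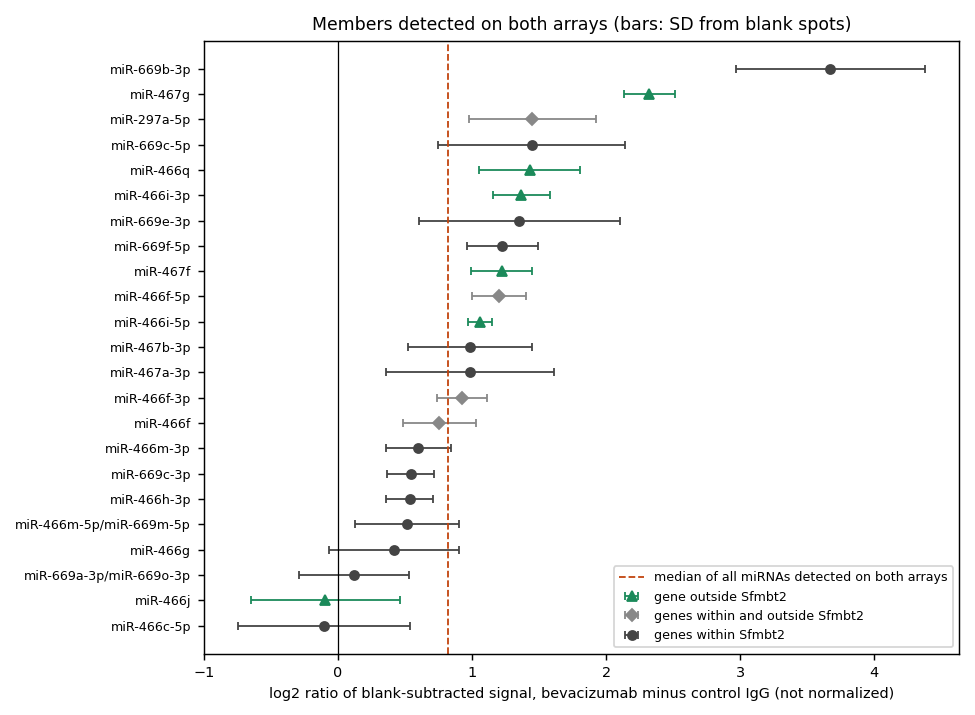
Unnormalized log2 ratio of blank-subtracted signal, bevacizumab minus control IgG, for the 23 members detected on both arrays, with bars for the SD that blank spots give, triangles for genes outside Sfmbt2, diamonds for genes in both places and circles for genes within it. The dashed line marks the median of all 917 miRNAs, 0.82; miR-669b-3p and miR-467g stand farthest to its right at 3.67 and 2.32.

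Among the 8 probes with a sequence, the 2 kinds of repeat overlapped in level on the control IgG array. Of these 8, the ratio can be compared with 1 U and G member only. The 4 A and C repeats were detected on both arrays, at 17.8 to 44.1 units on the bevacizumab array and 6.61 to 12.3 units on the control IgG array, with log2 ratios of 1.22 for miR-467f, 1.37 for miR-466i-3p, 1.43 for miR-466q and 2.32 for miR-467g. Of the 4 U and G repeats, miR-466j was detected on both arrays, with a log2 ratio of -0.096 ± 0.55, and miR-669n on the control IgG array alone. miR-466j read 10.7 units on the bevacizumab array, below all 4 A and C repeats, and 11.4 on the control IgG array, above miR-466q and miR-467g. With local background and median scaling its log2 difference was 0.87, within the 0.64 to 0.94 of the A and C repeats. miR-466k read 1.53 units on the bevacizumab array and -0.18 on the control IgG array, and miR-467h 0.20 and 0.73 units, all below the limits. These are 8 probes with related sequences on 1 pair of arrays, and no difference between the kinds was tested. Members with no sequence in RefSeq could not be placed in either kind. One of them is miR-466i-5p, the other arm of the miR-466i-3p hairpin. It read 70.6 units on the bevacizumab array and 33.9 on the control IgG array, with a log2 ratio of 1.06.

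Other miRNAs carry such repeats too. The letters UGUGUGU occur in 11 of the 1614 probes with a RefSeq sequence (0.682%), 8 of them outside these families, and ACACACA occurs in 5 (0.310%), 1 of them outside. The search was on the mature strand only. It did not cover every chromosome and used only probes that name a single miRNA. Of the 8 outsiders with UGUGUGU, the bevacizumab array detected 4 and the control IgG array 8, and the 4 seen on both had a median log2 ratio of 0.87. The brightest on the control IgG array were miR-574-5p, with 36.8 units on the bevacizumab array and 22.5 units on the control IgG array, miR-1187 (30.6 and 15.3) and miR-3082-5p (19.6 and 11.7). Their sequences, printed with the seed in capitals, resemble the U and G members.
miR-574-5p: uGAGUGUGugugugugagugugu
miR-1187: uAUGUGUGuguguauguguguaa
miR-3082-5p: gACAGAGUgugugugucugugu
In GRCm38.p6 they lie at chr5:64970328-64970350 (plus strand), chr5:82798964-82798986 (minus) and chr17:25831406-25831427 (minus). miR-1187 is 4 edits from miR-466j and 5 from miR-669n, closer than any member with a known sequence. All miRNAs outside the families with a run of at least 6 alternating U and G had a median ratio of 0.87 (10 detected on both arrays of 26). These ranged widely, from -1.61 to 2.25, with let-7b-5p the lowest. Those with such a run of A and C had a median of 0.73, from 0.40 to 1.43 (4 of 13). Over all miRNAs the median was 0.82.

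The direction of the families between the arrays rested on the scaling. With the offset set to 0, 6 members were at least 2-fold higher (33.4% of all) and none lower (17% of all). Blank subtraction with quantile normalization gave 7 higher (34.2% of all) and none lower (17.1% of all). With the offset of 50, no member passed 2-fold either way under median scaling (6% of all higher, 12% lower) or cyclic loess (6.65% of all higher, 14.1% lower). Local background with median scaling gave none higher (9.03% of the 864 miRNAs it could use) and 2 lower (17.5%). With each array's blank-subtracted signals scaled to its own median over the 917 miRNAs, the members' median was 0.50 (0.33 over all), with 2 members at least 2-fold higher (19.7% of all) and none lower (19.5% of all). In the authors' deposited table it was -0.28 (-0.45 over all), with 2 of the 23 higher (2.94% of all) and 3 lower (32.4% of all). That table also lists miR-466h-5p, which is not among the 23, on both arrays. There miR-466h-5p stood at 6.6 units on the bevacizumab array and 23 on the control IgG array, a log2 difference of -1.80. Scaled to 5 spike control probes, which were 4.84 times as bright on the bevacizumab array (mean of log2 ratios), the members' median was -1.29 (-1.45 over all), with 1 higher (0.545% of all) and 16 lower (70.7% of all). The members' median was above that of all miRNAs under each setting tried except the normalized comparison given first, where it was 0.12 against 0.14. These settings are not independent. Blank-subtracted signals with no scaling, median scaling or spike scaling, and the deposited table, shift the same ratios by a constant. The gap was small elsewhere too, such as 0.026 against 0.024 with offset 50 and median scaling. Between 10 and 14 of the 23 members lay above the median of all. The detection limits that chose the 23, described above, apply to all these counts.

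**Figure D5:**
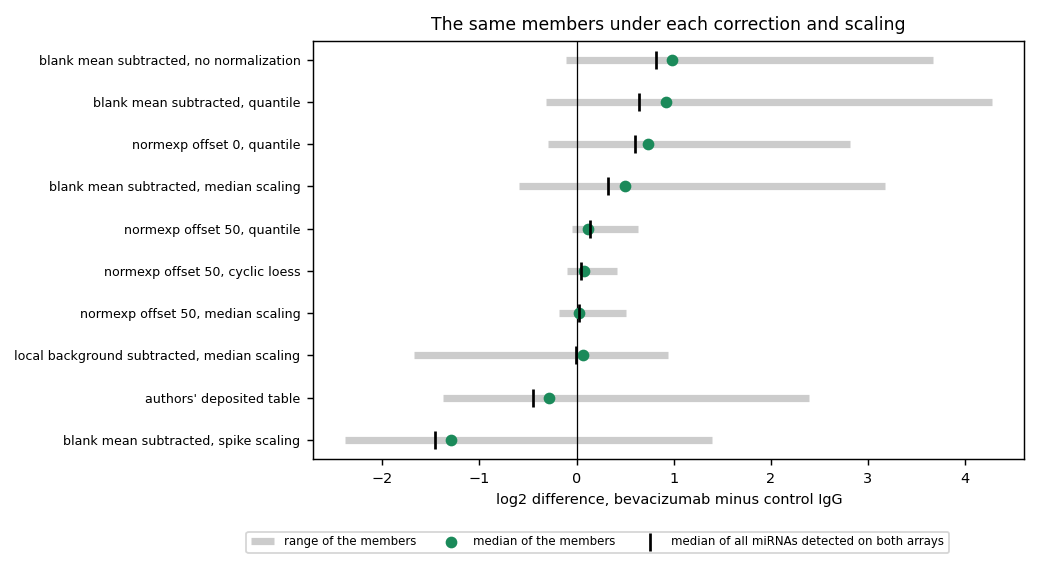
Median log2 difference, bevacizumab minus control IgG, of the 23 members (circles) and of all miRNAs detected on both arrays (vertical ticks) under 10 corrections and scalings, with grey bars for the members' range. The members' median moves from 0.99 with no normalization to -1.29 with spike scaling and stays beside that of all miRNAs.

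Other lists measured on the same arrays give the setting. In the imprinted Dlk1-Dio3 cluster the bevacizumab array detected 25 of 96 probes and the control IgG array 56. The 24 detected on both had a median normalized log2 difference of 0.12. They ranged from -2.15 to 2.28, wider than the -0.049 to 0.64 of the members. Of 9 trophoblast and embryonic stem cell miRNAs, 1 was detected on the bevacizumab array and 5 on the control IgG array, with levels of -11.7 to 66.7 and -1.70 to 22.4 units. Epithelial miRNAs were detected in 2 of 10 cases on the bevacizumab array and in all 10 on the control IgG array (at most 31.4 and 196 units). Stromal, mural and endothelial miRNAs were detected in 7 of 7 cases on both arrays, at 32.0 to 222 units on the bevacizumab array and 87.2 to 1520 on the control IgG array. Leukocyte miRNAs were detected in 4 and 7 of 7 cases. Striated muscle miRNAs were detected in 2 of 3 cases on the bevacizumab array and 3 on the control IgG array. Their levels were -1.94 to 222 and 73.7 to 1348 units. Erythroid miRNAs were also detected in 2 and 3 of 3 cases, at 6.04 to 144 and 27.1 to 1570 units. Median normalized log2 differences over probes detected on both arrays were -1.25 for epithelial (2 probes) and -2.17 for stromal, mural and endothelial miRNAs (7). They were -0.92 for leukocyte (4), -2.73 for striated muscle (2) and -1.01 for erythroid miRNAs (2). The 1 trophoblast and embryonic stem cell miRNA detected on both was at 0.61. The part of these other cell types in the levels of the 4 families was not tested.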

How the data were processed

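Total RNA of ID-8 tumours from a bevacizumab group and a control IgG group was labelled with Cy5 and read on 1 Toray 3D-Gene array per group; the design text names tumour RNA, whereas the sample protocol names cells, and which applies was not settled. The deposited scanner values are spot intensity on a linear scale (the spot median), combined from 3 gains by least squares per the file headers, with 3200 spots per array (1900 miRNA probes, 896 blank and 404 control spots). The deposited value table is also linear intensity: the listed values equalled the blank-subtracted signal divided by 1.22 for bevacizumab and by 0.505 for control IgG, to within 0.0525 units, so the authors set each array's median to 25; it is not centred by gene and its columns are named by sample.

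Blank means and SDs were taken with the top and bottom 5% of blank spots trimmed. The main difference used normexp on the blank spots with offset 50 and quantile normalization (limma 3.58.1 in R 4.3.3). The steps were run on simulated data with large planted changes only. Dim probes were not checked apart from the rest, so that run does not cover the levels of these members. With 1 array per group no p-value was computed, and errors are blank-spot SDs carried into the log2 ratio, which leave out animals and labelling; repeat spots of control probes gave a log2 difference with an SD of 0.16. Tables and figures were made with Python 3.11.15, pandas 2.3.3, numpy 2.4.6 and matplotlib 3.10.9. All members detected on both arrays or on the bevacizumab array alone were named, with the 3 brightest in each subfamily of those detected on the control IgG array alone; others were named for their repeats or gene copies after their values were seen. Sequences and gene positions relative to Sfmbt2 come from RefSeq (GRCm38.p6), which gives gene spans and not introns here. The members and lists were chosen with earlier results of these data known. Alternatives were the offset, quantile, median, cyclic loess, spike or no scaling, local background, the deposited table and a 5 SD detection limit.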

Additional observations from a re-analysis of the deposited data

How the results depend on the processing

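With 1 array per group, settings were compared with the median blank-spot SD of a log2 ratio, 0.37. Of the main results under the alternatives, 56 moved by less than that (counts by under 1.5 times) and 53 by more. A 5 SD limit left 12 members on the bevacizumab array and 11 on both arrays, against 27 and 23. Local background in place of the blank mean raised the members' median level to 33.4 units for bevacizumab and 9.34 for control IgG, against 5.90 and 2.69. The median log2 difference of the 23 members, 0.12 in the main setting, was 0.73 with offset 0, 0.92 with blank subtraction and quantile normalization, 0.50 with blank subtraction and median scaling, 0.99 with no normalization, -0.28 in the authors' deposited table and -1.29 with spike scaling. The count at least 2-fold higher, 0 in the main setting, was 6, 7, 2, 11, 2 and 1 in the same order, and the count at least 2-fold lower was 3 in the authors' deposited table, 16 with spike scaling and 2 with local background and median scaling, an alternative chosen after seeing the data. With offset 0 the medians were 1.16 for miR-297, 0.85 for miR-467, 0.97 for miR-669, 0.96 for 5p, 0.68 for 3p and 0.69 for names without an arm. With blank subtraction and quantile normalization they were 1.35 for miR-297, 0.94 for miR-467, 1.22 for miR-669, 0.96 for 5p, 0.70 for 3p and 0.69 without an arm. With median scaling they were 0.96 for miR-297, 0.61 for miR-467, 0.80 for miR-669 and 0.71 for 5p. With no normalization they were 1.45 for miR-297, 0.68 for miR-466, 1.10 for miR-467, 1.29 for miR-669, 1.20 for 5p, 0.96 for 3p and 0.99 without an arm. With spike scaling they were -0.82 for miR-297, -1.60 for miR-466, -1.17 for miR-467, -0.99 for miR-669, -1.07 for 5p, -1.32 for 3p and -1.29 without an arm. In the authors' deposited table they were -0.59 for miR-466, -0.31 for 3p and -0.28 without an arm, and local background gave 0.69 without an arm. The cause of these shifts was not tested. Single members were judged by the blank-spot SD of their own ratio in place of 0.37, and 122 values moved while 96 did not. No paired analysis was possible because each group has 1 sample, and no replicate could be left out. The blank-spot spread of the bevacizumab array, 4.03 units against 0.828 for control IgG, limits what can be seen of members this dim.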
